A study of Homo sapiens with 7 samples.

Results

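The hexosamine pathway turns a small part of the sugar that enters glycolysis into UDP-GlcNAc, the activated amino sugar of the cell. Its 7 genes analysed here are GFPT1, GFPT2, GNPNAT1, PGM3, UAP1, OGT and NAGK, out of 57189 genes listed with RNAseq counts, and all 7 had enough counts to be tested. The enzymes were named by their role, but the group was selected on the known difference of GFPT2 between BV6-treated and untreated cells. This contrast is therefore described for the 7 genes with estimates and intervals and is not read as support. No p-value is printed for them, and whether GFPT2 passed a threshold is stated only as a description beside the share of all genes. The cells were RH30, an established line from an alveolar rhabdomyosarcoma (RMS), labelled as wild type but, per the methods of the study, carrying GFP and luciferase, and only this line was analysed here. RNAseq counts were analysed for 4 untreated samples and 3 samples treated with 5 µM of the Smac mimetic BV6, an antagonist of IAPs, for 24 h. All samples were grown in the same serum-containing medium, and no vehicle is named for the untreated cells. Titles carry a BC tag, whose meaning is not stated and which is read here as an experiment. By this tag BV6 replicates 2, 3 and 4 are matched to untreated replicates 2, 3 and 4, while untreated replicate 1 stands alone. Deviations from the group means correlated by 0.462, 0.438 and 0.0847 within replicates 2, 3 and 4. Between untreated and BV6 samples of different replicate numbers, they correlated by -0.437 to 0.278. The value of replicate 4 lies within that range, so that its match was weak.

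In the de novo route, glutamine:fructose-6-phosphate amidotransferase carries out the first and rate-limiting step, with GFPT1 and GFPT2 as its isoenzymes. GNPNAT1 then adds an acetyl group, PGM3 moves the phosphate and UAP1 joins the sugar to UTP. NAGK feeds free N-acetylglucosamine back into the route as the salvage kinase. UDP-GlcNAc is used for N-glycans, GPI anchors and glycosaminoglycans, and OGT uses it to place single O-GlcNAc residues on nuclear and cytosolic proteins. In muscle the route is known from congenital myasthenic syndromes, in which GFPT1 is one of the mutated genes, and from a longer GFPT1 isoform with a muscle-specific exon, which counts per gene do not separate from the common one.

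The promoters of both isoenzymes are shown because GFPT1 and GFPT2 carry out the same reaction but differed in their counts with BV6. Both windows run from 250 bases before to 50 bases after the start in RefSeq (GRCh38.p14, minus strand), at chr5:180353287-180353586 for GFPT2 and chr2:69387178-69387477 for GFPT1. Capitals mark matches on either strand to the GC box GGGCGG and, in GFPT2, to the κB consensus GGGRNWYYCC. In it R is A or G, W is A or T, Y is C or T and N is any base.
GFPT2: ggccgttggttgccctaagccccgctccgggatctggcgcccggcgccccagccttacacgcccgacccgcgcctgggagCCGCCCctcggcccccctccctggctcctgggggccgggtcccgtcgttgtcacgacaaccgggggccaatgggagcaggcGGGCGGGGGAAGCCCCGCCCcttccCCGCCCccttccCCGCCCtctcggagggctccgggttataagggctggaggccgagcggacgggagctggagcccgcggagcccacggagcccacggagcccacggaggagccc
GFPT1: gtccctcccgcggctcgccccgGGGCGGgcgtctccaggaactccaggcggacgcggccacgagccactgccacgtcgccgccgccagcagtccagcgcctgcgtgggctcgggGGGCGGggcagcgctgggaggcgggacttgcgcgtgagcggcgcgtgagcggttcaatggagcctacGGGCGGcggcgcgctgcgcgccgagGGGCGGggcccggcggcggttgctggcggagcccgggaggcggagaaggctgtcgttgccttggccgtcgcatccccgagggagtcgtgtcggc
The GFPT2 window held 5 GC boxes and 1 match to the κB consensus, gggaagcccc, whose first base lies at position -83 from the start. This match fits the consensus when read on the strand opposite to the one printed. It follows directly on one GC box and shares 2 bases with the next, so that they appear as 1 run of capitals. The GFPT1 window held 4 GC boxes and no match to the κB consensus, and neither did the 9 windows of the other members, since RefSeq lists 11 windows for the 7 genes. Among all 35116 promoter windows of this length, 5.91% held the κB consensus and 45.0% a GC box. A GC box was found in 10 of the 11 windows, whereas TATAAA (11.5% of all windows) and the AP-1 motif TGANTCA (7.71%) were found in none of them. The GC content of these windows lay between 57.7% and 79.3%, against a median of 58.7% over all promoters. These matches describe letters only, and binding was not measured here.

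GFPT2 lies on chromosome 5 (180300698 to 180353336, minus strand, GRCh38, GENCODE 44). Its transcript was scarce in untreated cells, with 19, 31, 15 and 12 counts in replicates 1 to 4. These counts correspond to 0.246, 0.552, 0.249 and 0.194 CPM (counts per 1000000 counts of normalized library size). With BV6, replicates 2, 3 and 4 had 160, 85 and 115 counts, or 2.85, 1.39 and 2.13 CPM. Every BV6 sample lay above every untreated sample. Exact 95% Poisson intervals were 1.11 to 1.71 CPM for the lowest BV6 value and 0.375 to 0.783 CPM for the highest untreated one. They cover counting error only and not the spread between replicates. Since GFPT2 was selected on this contrast, nothing is read from the distance between them. The count totals of every sample exceed the read numbers that the study gives for its libraries. Counts therefore do not stand for single reads as numbered there, and the intervals above are too narrow. Whether both mates of a fragment were counted is not stated. If they were, the 85 and 31 counts would come from 43 and 16 fragments, with wider intervals of 1.01 to 1.89 and 0.326 to 0.925 CPM. Means were 0.31 ± 0.163 CPM (SD, n = 4) without and 2.12 ± 0.731 CPM (SD, n = 3) with BV6. By edgeR the log2 fold change was 2.78 (standard error, SE, 0.391, with a 95% interval from 1.90 to 3.66), a fold change of 6.87 with an interval from 3.74 to 12.6. Among the tested genes, 24 had a larger log2 fold change. In bulk RNA, more cells that express a gene and more RNA of it per cell cannot be told apart.
Within the matched experiments, the CPM of GFPT2 was 5.16 times higher with BV6 in replicate 2, 5.57 times in replicate 3 and 11.0 times in replicate 4. The absolute gains were 2.3, 1.14 and 1.94 CPM. Replicate 2 had the highest GFPT2 level under both conditions. Replicate 4, with the highest ratio and the weak match, had the lowest untreated level of all samples and the middle level with BV6.

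**Figure D1:**
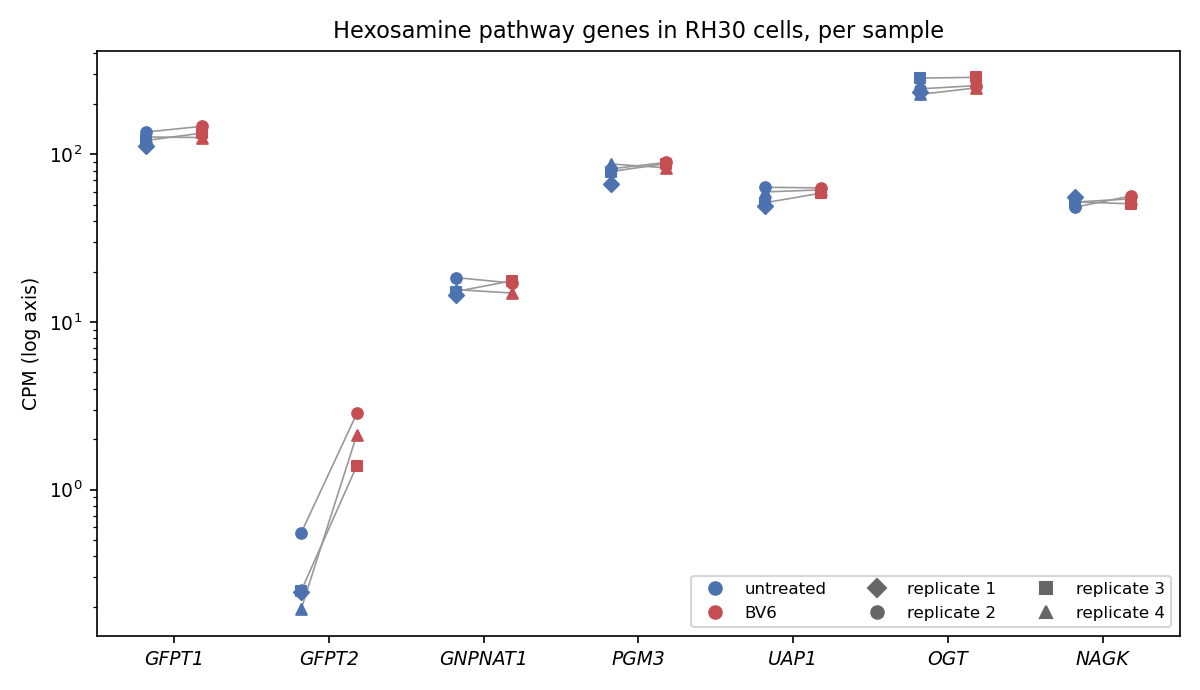
CPM of the 7 hexosamine pathway genes in each sample on a log axis, with untreated samples in blue, BV6 samples in red, symbols for replicates and lines between samples of the same experiment. GFPT2 rose from 0.194 to 0.552 CPM without BV6 to 1.39 to 2.85 CPM with it, while the groups overlapped for the other 6 genes.

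GFPT1 (chromosome 2, 69319780 to 69387250) was the far more abundant isoenzyme. It had 112, 136, 121 and 127 CPM in untreated replicates 1 to 4 and 147, 134 and 126 CPM in BV6 replicates 2, 3 and 4. The groups overlapped, and the log2 fold change was 0.13 (95% interval -0.11 to 0.36), so that the interval holds changes between 0.927 and 1.29 times.
GFPT2 made up 0.219%, 0.404%, 0.205% and 0.152% of the summed counts of both isoenzymes in untreated replicates 1 to 4. With BV6 the share was 1.90%, 1.03% and 1.66% in replicates 2, 3 and 4. The 95% Wilson interval was 0.83% to 1.27% for the lowest BV6 share and 0.285% to 0.572% for the highest untreated one. With halved counts these intervals were 0.771% to 1.39% and 0.257% to 0.676%. They cover counting error only, and nothing is read from the distance between them, since GFPT2 was selected on this contrast. Per kilobase of exon, which allows for the longer GFPT1 transcript, GFPT2 contributed 0.458% ± 0.204 (SD, n = 4) without and 2.83% ± 0.827 (SD, n = 3) with BV6. With the longest transcript as the length, these means were 0.695% and 4.24%. The summed level of both isoenzymes was 14.1 ± 1.18 CPM per kilobase in untreated and 15.8 ± 1.29 CPM per kilobase in BV6-treated cells. Counts of GFPT1 exceeded those of GFPT2 in all 7 samples, from 51.6 times in BV6 replicate 2 to 657 times in untreated replicate 4. These are not ratios of transcripts, since GFPT1 is longer. Per kilobase of exon, the GFPT2 share in BV6 replicate 2 was 3.51%, the highest of the samples.

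**Figure D2:**
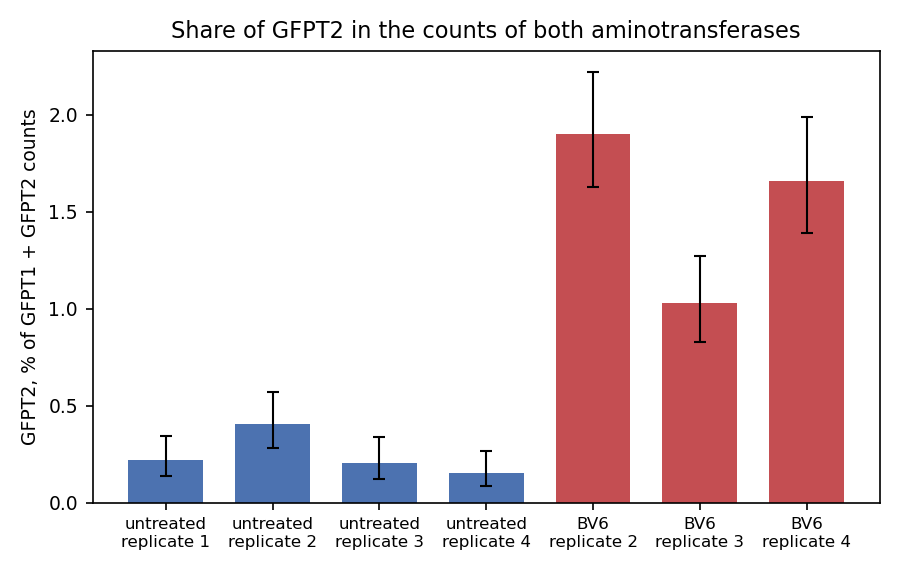
Share of GFPT2 in the summed counts of GFPT1 and GFPT2, in percent, for each sample, with bars for the share and lines for the 95% Wilson interval (counting error only). These intervals are too narrow, since the count totals exceed the read numbers given for the libraries. The untreated samples lie between 0.152% and 0.404% and the BV6 samples between 1.03% and 1.90%.

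For the enzymes downstream of the aminotransferases, the groups overlapped throughout. GNPNAT1, the acetyltransferase (chromosome 14, 52775193 to 52791668), had 14.4, 18.4, 15.2 and 15.6 CPM in untreated replicates 1 to 4 and 17.1, 17.6 and 14.9 CPM in BV6 replicates 2, 3 and 4. Its log2 fold change was 0.06 (95% interval -0.25 to 0.37).
PGM3, the mutase (chromosome 6, 83147324 to 83193936), had 67.0, 81.9, 78.9 and 87.7 CPM without and 89.6, 88.1 and 83.1 CPM with BV6. Its log2 fold change of 0.14 (95% interval -0.11 to 0.39) was the highest among the members other than GFPT2.
UAP1, the pyrophosphorylase that yields UDP-GlcNAc (chromosome 1, 162561722 to 162601240), had 49.2, 63.6, 51.5 and 59.7 CPM without and 63.1, 58.7 and 61.4 CPM with BV6, a log2 fold change of 0.12 (95% interval -0.14 to 0.39). For these 3 enzymes, the values of BV6-treated cells lay within or close to the range of the untreated ones.
OGT, the O-GlcNAc transferase (chromosome X, 71533087 to 71575892), had the highest counts of the 7 genes, with 236, 246, 285 and 228 CPM without and 257, 288 and 249 CPM with BV6. Its log2 fold change was 0.09 (95% interval -0.16 to 0.34). OGT was higher with BV6 in all 3 experiments, by 0.02 to 0.13 on the log2 scale, which is less than the spread among untreated samples.
NAGK, the salvage kinase (chromosome 2, 71064344 to 71079808), had 55.7, 48.4, 52.1 and 51.9 CPM without and 56.4, 50.7 and 54.3 CPM with BV6, a log2 fold change of 0.05 (95% interval -0.18 to 0.28). It also varied least among untreated samples, with a coefficient of variation of 5.74%, against 52.6% for GFPT2 and a median of 11.2% over the 11042 tested genes with at least 10 CPM in untreated cells.

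For the 6 genes other than GFPT2, log2 fold changes lay between 0.05 and 0.14, with a median of 0.11, against -0.014 over all 23124 genes tested. The 95% intervals of these 6 genes reached from -0.25 to 0.39, so that a change of more than 1.31 times up or 0.842 times down lay outside each of them. Of their 18 differences within experiments, 12 were positive, and the largest was 0.22 in size on the log2 scale. Untreated replicate 1 had the lowest level of all 7 samples for GFPT1, GNPNAT1, PGM3 and UAP1, by 0.18 to 0.31 on the log2 scale below the mean of the other untreated samples for those genes, and the highest untreated level for NAGK. Without that sample, the log2 fold changes of the 6 genes ranged from 0.02 to 0.09. The longest transcripts of these 4 genes have a GC content of 38.2% to 39.8%, that of NAGK 50.8%. The part of GC content in the values of untreated replicate 1 was not tested.
With the edgeR p adjusted by Benjamini-Hochberg over all tested genes and a threshold of 0.05, 1 of the 7 genes, GFPT2, was called, where 0.45% of all tested genes were called. The same gene alone had groups without overlap, a pattern seen in 8.83% of all tested genes. Since GFPT2 was known when the genes were selected, nothing is read from these counts. GFPT2 kept its call without untreated replicate 2 or BV6 replicate 3 and lost it without any one of the other 5 samples, with a log2 fold change between 2.52 and 3.18.

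**Figure D3:**
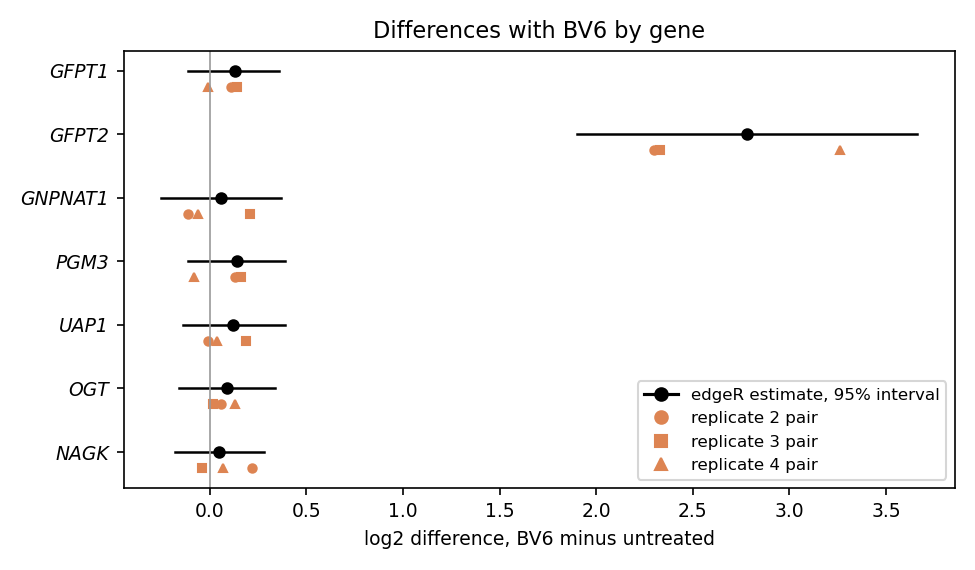
Log2 difference between BV6-treated and untreated cells for the 7 genes, with black points for the edgeR estimate over all 7 samples, lines for its 95% interval and orange symbols for the difference in log2 CPM within each matched experiment. GFPT2 lies at 2.78, and the intervals of the other 6 genes include 0 and end at or below 0.39.

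Levels can be compared between genes only per length. In CPM per kilobase of exon, untreated cells had 25.4 ± 2.55 for OGT, 14.0 ± 1.14 for GFPT1, 12.1 ± 1.46 for UAP1, 5.85 ± 0.336 for NAGK, 3.96 ± 0.441 for GNPNAT1, 3.58 ± 0.397 for PGM3 and 0.0657 ± 0.0345 for GFPT2 (SD, n = 4 each). In this order, the ranges over samples overlapped between GFPT1 and UAP1 and between GNPNAT1 and PGM3, and the other neighbours were apart. The place of PGM3 depended on the length used, since many annotated PGM3 transcripts widen its exons to 22007 bases, against 7896 bases for the longest one. With the longest transcript as the length, PGM3 had 9.99 CPM per kilobase, above GNPNAT1 with 4.11 and with a range that overlapped that of NAGK with 11.9, and UAP1 had 15.7 against 14.3 for GFPT1. OGT stayed the highest and GFPT2 the lowest member with either length. Among the 17460 tested genes with a known length, GFPT2 stood at percentile 6.24 in untreated cells and at percentile 21.2 with BV6, while GFPT1 stood at 81.6 and 83.4.
Exons of GFPT1, GFPT2, UAP1 and OGT overlap no other annotated gene. PGM3 shares 1546 exonic bases (7.03%) with DOP1A on the opposite strand, GNPNAT1 shares 35.6% and NAGK 3.91% of their exonic bases with antisense lncRNAs. The use of strand in counting is not given in the sources used here, so that reads on these parts are uncertain.

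The genes around the pathway were taken from 8 lists of 80 genes, of which 75 were tested. By the same rule, edgeR called none of them, where 0.45% of all genes were. At an unadjusted p below 0.05 there were 9 of the 75, against 8.39% of all tested genes, and DESeq2 called 1, against 1.93% of all. In 12 of the 75 genes (16.0%) the groups did not overlap, against 8.83% of all tested genes. The median log2 fold change was 0.05, with 42 estimates above and 33 below 0.
O-GlcNAc is removed by OGA, the counterpart of OGT. OGA had 150 ± 10.6 CPM (SD, n = 4) without and 170 ± 12.7 CPM (SD, n = 3) with BV6, a log2 fold change of 0.18 (SE 0.101, edgeR p of 0.688 once adjusted by Benjamini-Hochberg), and was higher with BV6 in 3 of 3 experiments.
For the breakdown and salvage of amino sugars, 6 of 7 genes were tested and none was called, with a median of 0.15 on the log2 scale. GNPDA1, a deaminase that runs against the aminotransferase step by turning glucosamine 6-phosphate back into fructose 6-phosphate, had 49.1, 45.0, 54.5 and 53.1 CPM in untreated replicates 1 to 4. In BV6 replicates 2, 3 and 4 it had 75.9, 83.0 and 58.4 CPM, all above the untreated values. Its log2 fold change was 0.52 (SE 0.137, edgeR p of 0.228 once adjusted by Benjamini-Hochberg).
In the sialic acid branch, which starts from UDP-GlcNAc, all 6 genes were tested and none was called (median 0.10). CMAS, which activates sialic acid, had the highest mean CPM of this list, without regard to length, and a log2 fold change of 0.09. NPL, the lyase that breaks sialic acid down, was scarce, with 1.41 ± 0.243 CPM (SD, n = 4) without and 2.54 ± 0.727 CPM (SD, n = 3) with BV6. The groups of NPL did not overlap, at a log2 fold change of 0.84 (SE 0.246, edgeR p of 0.294 once adjusted by Benjamini-Hochberg).
Among genes for the conversion and transport of UDP-sugars, none of 7 tested was called (median -0.02). SLC35D1, a transporter of nucleotide sugars into the endoplasmic reticulum, had 89.3 ± 7.44 CPM without and 72.5 ± 4.85 CPM with BV6, without overlap, and a log2 fold change of -0.30 (SE 0.107, edgeR p of 0.467 once adjusted by Benjamini-Hochberg). UGDH, the most abundant of them by counts, had 97.7 ± 11.6 and 96.5 ± 8.07 CPM.
The supply of fructose 6-phosphate and glutamine was covered by 14 genes, of which none was called and none had groups without overlap (median -0.02). GPI, the isomerase that makes fructose 6-phosphate, had 403 ± 30.1 CPM without and 363 ± 61.4 CPM with BV6.
For N-glycan initiation and branching, 12 genes were tested, none was called, and 4 had groups without overlap, against 8.83% of all tested genes (median 0.11). Of these 4, DPAGT1 and ALG2 were higher with BV6, and MGAT1 and MGAT5 were lower. ALG2, a mannosyltransferase of the lipid-linked precursor and another gene of congenital myasthenic syndromes, had 32.6 ± 3.88 CPM without and 44.8 ± 6.44 CPM with BV6, a log2 fold change of 0.46 (SE 0.139, edgeR p of 0.331 once adjusted by Benjamini-Hochberg). MGAT5, a branching enzyme, had 163 ± 7.29 and 148 ± 2.59 CPM. The highest estimate of the list, 1.03 for MGAT4A, rests on levels of 0.0162 to 0.32 CPM in groups that overlapped.
Of the other users of UDP-GlcNAc and UDP-GalNAc, 19 of 22 genes were tested and none was called (median -0.06). Estimates were above 0 for 6 genes and below 0 for 13. The groups did not overlap for 2 of the 19, against 8.83% of all tested genes, and these 2 went in opposite directions. The higher of them was PIGA, which takes UDP-GlcNAc for GPI anchors. Its log2 fold change was 0.30 (SE 0.122, edgeR p of 0.557 once adjusted by Benjamini-Hochberg). GALNT2, which starts O-glycans, had one of -0.28 (SE 0.153), in groups that overlapped.
The unfolded protein response is known to raise hexosamine genes through XBP1 and ATF4. None of its 9 genes was called by edgeR (median 0.13), with 7 estimates above 0 and 2 below. ATF4 had a log2 fold change of 0.36 (SE 0.136, edgeR p of 0.51 once adjusted by Benjamini-Hochberg), in groups that overlapped. For XBP1 it was 0.21 (SE 0.0996, edgeR p of 0.62 once adjusted by Benjamini-Hochberg), without overlap. Both genes were higher with BV6 in 3 of 3 experiments. DDIT3, the stress factor CHOP, had 87.7, 59.0, 125 and 94.2 CPM in untreated replicates 1 to 4 and 141, 172 and 189 CPM in BV6 replicates 2, 3 and 4. These groups did not overlap, and the log2 fold change was 0.87 (SE 0.218, edgeR p of 0.201 once adjusted by Benjamini-Hochberg). DDIT3 passed the threshold with DESeq2 (adjusted p of 0.0347) and in edgeR without the filter on low counts (adjusted p of 0.0209). The chaperone HSPA5 had 871 ± 13.8 CPM without and 810 ± 243 CPM with BV6, with 1090 CPM in BV6 replicate 4 and 648 and 693 CPM in replicates 2 and 3.

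**Figure D4:**
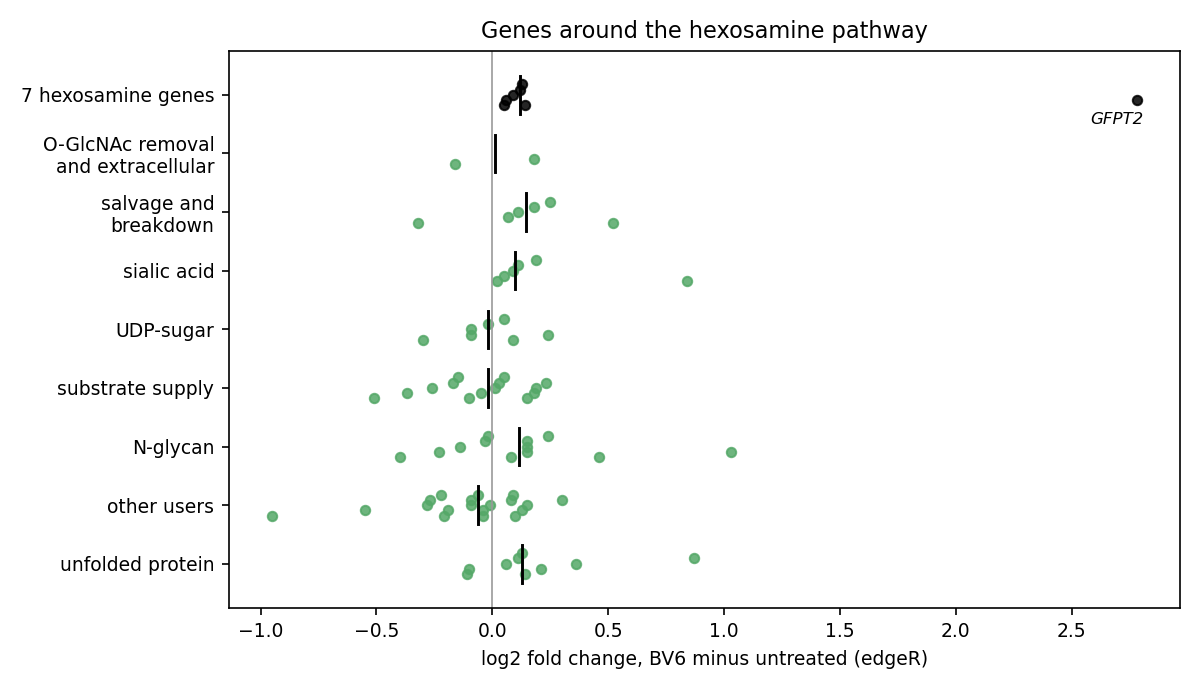
Log2 fold change (edgeR, BV6 minus untreated) of each tested gene in the 7 hexosamine genes and in 8 lists of genes around them, with 1 point a gene and a black line for the median of each list. GFPT2 lies at 2.78, and the points of the 8 lists lie between -0.95 and 1.03.

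Genes near the isoenzymes were looked at for changes that extend along the chromosome. Of 10 protein-coding genes that start within 500 kb of GFPT2, 7 were tested and none was called by edgeR, where 2 had an unadjusted p below 0.05 (8.39% of all tested genes) and 1 was called by DESeq2 (1.93% of all), with log2 fold changes between -0.40 and 0.92. The nearest tested genes on both sides were MAPK9, a stress-activated kinase (-0.06, SE 0.094), and CNOT6, a deadenylase (0.08, SE 0.106). MRNIP, which starts 491.2 kb away, had 84.9, 87.6, 70.1 and 64.6 CPM in untreated replicates 1 to 4 and 203, 119 and 115 CPM in BV6 replicates 2, 3 and 4. The groups of MRNIP did not overlap, and its log2 fold change was 0.92 (SE 0.205, edgeR p of 0.138 once adjusted by Benjamini-Hochberg). MGAT1, the enzyme that opens N-glycan branching, starts 462.3 kb away on the other side and had 84.8 ± 8.83 CPM without and 64.4 ± 11.6 CPM with BV6, a log2 fold change of -0.40 (SE 0.145, edgeR p of 0.486 once adjusted by Benjamini-Hochberg). Around GFPT1, 5 of 7 neighbours were tested and none was called by edgeR or DESeq2 or at an unadjusted p below 0.05, and the highest estimate was 0.49 for ANXA4.

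**Figure D5:**
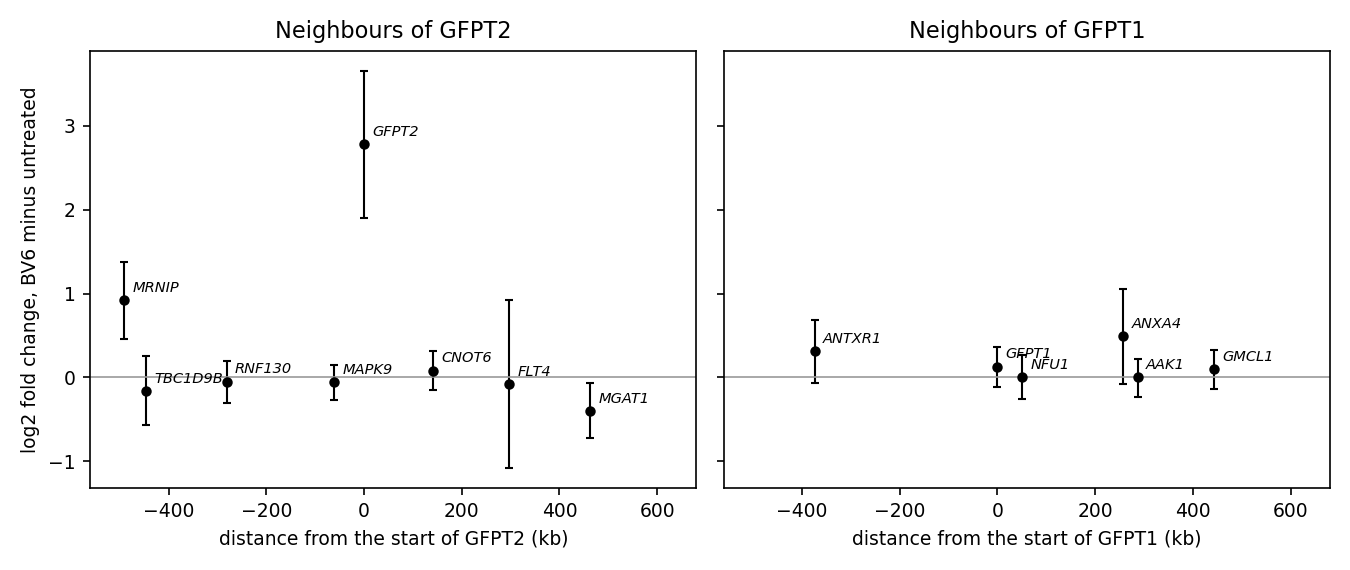
Log2 fold change (edgeR, BV6 minus untreated, lines for the 95% interval) of tested protein-coding genes against the distance of their start from that of GFPT2 (left) or GFPT1 (right), in kb. GFPT2 at 2.78 stands between MAPK9 and CNOT6, whose estimates are -0.06 and 0.08, and MRNIP lies at 0.92.

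The genes whose profile over the 7 samples was most like that of GFPT2 were sought among 18894 tested genes with a mean of at least 0.5 CPM, by the root-mean-square distance of centred log2 CPM. They were SIGLEC15 (distance 0.32), AC025580.2 (0.376), NFKBIA (0.387), PLA2G4C-AS1 (0.484) and MMP9 (0.486), at a median distance of 1.44 over all compared genes. SIGLEC15, a sialic acid-binding receptor, had 0.13, 0.32, 0.232 and 0.162 CPM in untreated replicates 1 to 4 and 1.41, 0.766 and 1.65 CPM in BV6 replicates 2, 3 and 4. NFKBIA, the gene of IκBα, had 19.7, 34.9, 18.4 and 22.4 CPM without and 153, 85.7 and 82.4 CPM with BV6. In GFPT2 and NFKBIA alike, replicate 2 was the highest under both conditions. No other hexosamine gene came near, the closest of them standing at rank 2628. These distances use the contrast that selected GFPT2 and are a description over 7 samples.

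RH30 identity and admixed cells were checked by marker lists. MYOD1 and DES, which mark the muscle lineage, had means of 344 and 768 CPM in untreated cells, and of the 10 RMS markers 9 were tested and none was called by edgeR, where 3 had an unadjusted p below 0.05 (8.39% of all tested genes) and 1 was called by DESeq2 (1.93% of all). The latter was CHRND, a subunit of the muscle acetylcholine receptor, with 250, 188, 269 and 254 CPM in untreated replicates 1 to 4 and 130, 145 and 179 CPM in BV6 replicates 2, 3 and 4. Its groups did not overlap, and its log2 fold change was -0.67 (SE 0.154, edgeR p of 0.153 once adjusted by Benjamini-Hochberg, 0.0149 with DESeq2). Of the 9 RMS markers tested, 7 had estimates below 0 and 2 above (median -0.27). The 3 at an unadjusted edgeR p below 0.05 were all lower with BV6. All 10 RMS markers together summed to 2060 to 2930 CPM without and 1370 to 2340 CPM with BV6, and the part of this lower range in the other results was not tested. The counts of 12 leukocyte markers summed to 10.7 to 14.6 CPM in untreated and 7.32 to 11.7 CPM in BV6 samples, mostly from NKG7, and PTPRC, the pan-leukocyte marker, had 11 to 58 counts. None of the 12 was at 0 counts in all samples. The 8 fibroblast markers, of interest since GFPT2 is known from mesenchymal cells, summed to 106 to 117 CPM without and 81.8 to 109 CPM with BV6, nearly all of it from THY1 with 71.7 to 99.7 CPM. COL1A1 had 5.05 to 14.5 CPM and LUM 1.10 to 4.99 CPM, while DCN, POSTN and FAP had at most 17 counts in any sample. Of the 5 fibroblast markers tested, 4 had estimates below 0 and 1 above. COL1A2, at 0.342 to 0.999 CPM, was lower with BV6 without overlap (log2 fold change -0.67, SE 0.3, edgeR p of 0.596 once adjusted by Benjamini-Hochberg). Neither of these lists had a gene called by edgeR or DESeq2 or at an unadjusted p below 0.05. No mesenchymal or epithelial marker among the 8 tested of 10 was called by edgeR (2 at an unadjusted p below 0.05, 1 by DESeq2). Of these 8, 4 were higher and 4 lower with BV6 (median 0.08). The 2 were VIM and FN1, which went in opposite directions. FN1 had a log2 fold change of -0.49 (SE 0.216, edgeR p of 0.593 once adjusted by Benjamini-Hochberg). Its groups overlapped, and it was lower with BV6 in all 3 experiments. VIM, the gene of vimentin, had 2440, 2520, 2320 and 2440 CPM in untreated replicates 1 to 4 and 3920, 3240 and 3500 CPM in BV6 replicates 2, 3 and 4. VIM thus moved with the treatment without overlap, at a log2 fold change of 0.55 (SE 0.0989, edgeR p of 0.0561 once adjusted by Benjamini-Hochberg), and its part in the change of GFPT2 was not tested.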

How the data were processed

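For 7 RH30 samples, the values deposited by the authors are raw counts of 57189 genes, made from stranded poly(A) libraries by paired-end sequencing, mapping to GRCh38 with STAR 2.6.1d and a custom union model of isoforms per Ensembl gene. The counting program and its use of strand are not given in the sources used here. Counts summed to 54070030 to 77220882 per sample, and 3 counts, the smallest number taken as detected, correspond to 0.0389 to 0.0557 CPM.

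From these counts, all genes were fitted with edgeR 4.0.16 in R 4.3.3 (filterByExpr with a minimum count of 10, TMM, quasi-likelihood test, condition only) and adjusted by Benjamini-Hochberg over 23124 genes. Standard errors were derived from the F statistic. Differences within experiments used log2 CPM with a prior count of 2. DESeq2 1.42.0 was an alternative. Members and lists were chosen with earlier results of these data known. All 7 members were named. From each list, called genes, the gene with the highest mean CPM and the gene with the smallest p were named, with the 5 genes most like GFPT2 and neighbours within 500 kb. Other genes were named for ranges, and 1 result under this rule is not reported here. MRNIP, MGAT1, MGAT4A, DPAGT1, CHRND, VIM, FN1, XBP1, ATF4 and COL1A2 were named or given in detail after their values were seen. Positions and lengths are from GENCODE 44, and 36327 genes matched by symbol. The scripts were tested on simulated data. Neighbour distances run between gene starts. The study describes its replicates as biological.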

Additional observations from a re-analysis of the deposited data

Results flagged for a closer look

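Among 41 values checked in the 4 untreated samples, 2 had 1 sample far from the other 3, and chance alone gives such a gap in about 1 in 20 groups. Untreated replicate 2 stood apart for GFPT2, at 0.552 CPM where the remaining samples had 0.194 to 0.249 CPM, a gap that filled 0.847 of the range. These are 31 against 12 to 19 counts. Untreated replicate 4 stood apart for UGDH, at 115 CPM where the remaining samples had 91.7 to 92.1 CPM, a gap of 0.983 of the range, and BV6 replicate 4 was also the highest of the BV6 samples, with 106 CPM.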

How the results depend on the processing

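The log2 fold change of GFPT2 stayed between 2.52 and 3.18 under all alternatives, and leaving out each sample in turn gave both ends. Its call was lost in 5 of 7 such fits and kept under the other 7 alternatives. All 84 values of the other 6 members under alternatives lay within 1 SD of the reported ones, and 83 were above 0. With the replicate block and the GC trend removed, these 6 ranged from -0.04 to 0.06. The number of genes called was 104 (91 higher, 13 lower), 447 with DESeq2 (266 and 181), 242 without a filter on low counts (169 and 73), 218 with the replicate block (150 and 68), 889 with the block and the GC trend removed (409 and 480) and 178 with the block on the same genes without the GC correction, a fit added after the data had been seen. Without 1 sample it was 38 to 89. It was 41, 65, 38 and 44 without untreated replicates 1 to 4 in turn, and 57 and 53 without BV6 replicates 2 and 4.

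Pathway genes called were 0 by edgeR, 1 with DESeq2, 1 without the filter, 2 with the replicate block (DDIT3, adjusted p = 0.0431 in edgeR, and HAS2), 9 with the block and the GC trend removed (ALG2, ATF4, DDIT3, GALNT7, GNPDA1, HAS2, MGAT1, MGAT4B and SLC35D1, or 12.0% against 5.09% of all genes in that fit) and 1 with the block on the same genes, and 0 to 0 without 1 sample. MRNIP and VIM passed with DESeq2 (adjusted p = 0.0105 and 0.000332), without the filter and with the block (adjusted p = 0.0126 and 0.0229, edgeR), and CHRND with the block (0.0368). Samples with the same experiment tag deviated from their group means with correlations of 0.462, 0.438 and 0.0847 for replicates 2, 3 and 4, and 4 of 6 samples correlated best with their own number, so that the block stayed an alternative. GFPT2 rests on 12 to 31 counts in untreated samples, or 6 to 16 fragments if both mates were counted. With counts halved for that case, its log2 fold change was 2.74 and 111 genes were called.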

Other observations

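Hyaluronan is built from UDP-GlcNAc and UDP-glucuronic acid by 3 synthases. Of these, HAS2, named here after its values were seen, had the widest range in CPM. HAS2 had 14.7, 16.1, 20.6 and 37.2 CPM in untreated replicates 1 to 4 and 5.11, 11.6 and 17.7 CPM in BV6 replicates 2, 3 and 4. The groups overlapped, but HAS2 was lower with BV6 in all 3 experiments. The edgeR log2 fold change was -0.95 (SE 0.428, p of 0.60 once adjusted by Benjamini-Hochberg), and -1.18 with the replicate block (adjusted p of 0.0253). HAS3 had 15.8 ± 1.34 CPM (SD, n = 4) without and 15.2 ± 1.61 CPM (SD, n = 3) with BV6, and HAS1 had 2 to 11 counts in each sample and was not tested.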
